A study of Mus musculus with 24 samples.

Results

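Mouse embryonic stem cells (ESC) labelled TRIM33-KO were compared with a wild-type (WT) line, WT pLV2 line 2, before a DUX transgene was switched on. The 4 libraries, 2 per line, were chosen by their titles from the 24 RNA-seq libraries of the series, and no measured value entered the choice. Both lines derive from KH2, an ESC line built for transgenes controlled by doxycycline (DOX), and both carry a TRE_DUX transgene, that is, the transcription factor DUX behind a DOX-responsive promoter. The titles of these 4 libraries carry no DOX, whereas other libraries of the series received it for 16 h. The title of the knockout reads TRIM33KO_pLV2_1 and that of the reference reads WT_pLV2_2. The meaning of pLV2, the way the knockout was made, its clonality and its parental WT line are not in the labels. A second WT line without DOX, WT pLV2 line 1 (2 libraries), is therefore given beside the results. Nothing in the labels states that the 2 libraries of a line came from separate cultures. The p-values measure a spread between libraries of the same group, which may therefore be technical. That spread was estimated over the 8 groups of all 16 pLV2 libraries, with and without DOX, and not within these 2 lines alone.

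TRIM33 (also called TIF1-gamma) is a chromatin protein of the TIF1 family, whose other members are TRIM24, TRIM28 and TRIM66. It reads modified histone H3 tails through its PHD finger and bromodomain, and it is a partner of SMAD proteins, the nuclear effectors of Nodal, TGF-beta and BMP signals. In ESC it is known for a role at mesendoderm genes that respond to Nodal, and TIF1 proteins are also known as repressors of endogenous retroviruses.

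Reads from Trim33 itself (chr3:103279293-103358775, GRCm38) were present but reduced in the knockout. The level was 20.3 and 21.4 CPM (normalised read counts, scaled to the number of reads assigned to genes) in the TRIM33-KO libraries. It was 115 and 118 CPM in WT line 2 and 139.96 and 136 CPM in WT line 1. The 2 knockout libraries lay below all 4 WT libraries, and the difference from line 2 was -2.48 ± 0.07 (log2 fold change ± standard error, edgeR adjusted p = 2.21e-12), a 5.59-fold lower level. A count per gene does not show which exons were deleted or whether protein remained. Dux (Duxf3) had a level of 0 and 0.0960 CPM in the TRIM33-KO libraries and 0 and 0 CPM in line 2. In the 8 pLV2 libraries with DOX in the title it lay between 3.05 and 8.32 CPM, so the Dux level follows the titles. The treatment tag does not: it reads DOX in every TRIM33-KO library and None in every WT library of the pLV2 lines.

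Gene counts totalled 17779493 and 19136869 in the TRIM33-KO libraries and 17763800 and 14256236 in line 2. WT line 2 replicate 2 stood apart from replicate 1 on chromosomes 1 and 8, where the median gene lay below that of replicate 1. Relative to the line 2 mean, the medians (log2 of CPM + 1) were 0.10 and -0.10 on chromosome 1 and 0.09 and -0.09 on chromosome 8, for replicates 1 and 2. Both TRIM33-KO libraries were near replicate 1 there (0.07 and 0.07 on chromosome 1, 0.09 and 0.09 on chromosome 8). On the other autosomes the medians of these 4 libraries lay between -0.03 and 0.02. WT line 1 was further away, with medians of -0.42 and -0.38 on chromosome 1, -0.40 and -0.38 on chromosome 11, and -0.32 and -0.32 on chromosome 6. Calls on chromosomes 1 and 8 are therefore also given without WT line 2 replicate 2: 19 of 30 genes on chromosome 1 and 11 of 18 on chromosome 8 then still passed the threshold, as did 164 of all 274 called genes. Windows of 20 Mb showed like splits elsewhere. On chromosome 6 from 20 to 40 Mb the line 2 medians were 0.10 and -0.10, with TRIM33-KO at 0.08 and 0.08. On chromosome X from 160 to 180 Mb the split ran the other way, with line 2 at -0.19 and 0.19 and TRIM33-KO at -0.29 and -0.24. TRIM33-KO replicate 2 stood apart too, in mitochondrial genes (median 0.39, against -0.01 in replicate 1) and in the summed level of hAT-Tip100 DNA transposons (3653 against 6528 CPM, with 7039 and 6960.3 in line 2). The part of these splits in the results was not tested.

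**Figure D1:**
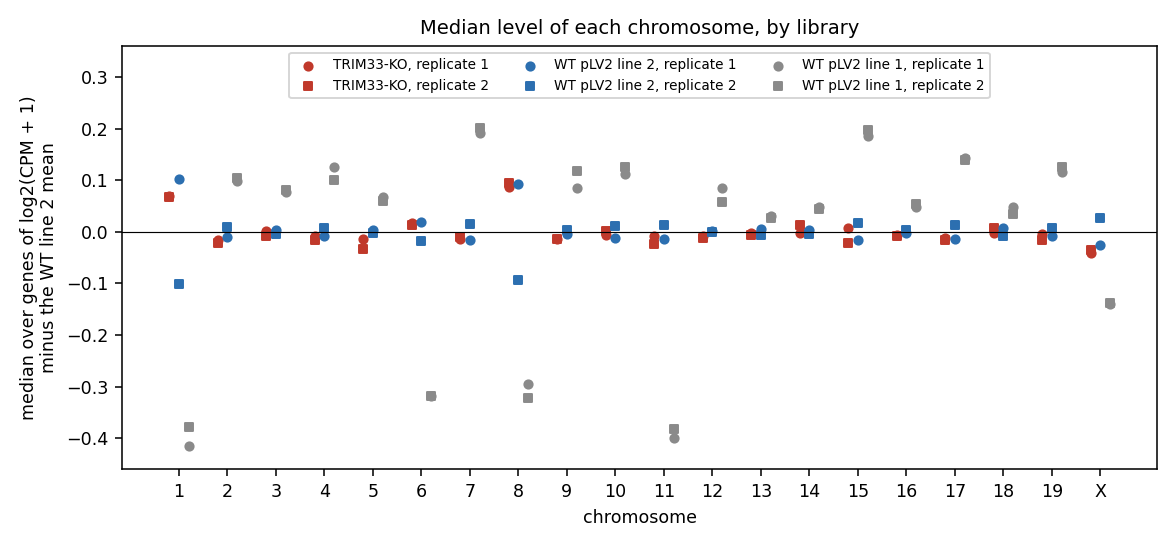
Median over genes (mean of at least 50 counts) of log2(CPM + 1) minus the WT line 2 mean, for each chromosome and library; circles are replicate 1 and squares replicate 2. The TRIM33-KO points lie close to line 2 on most chromosomes, the 2 line 2 libraries part on chromosomes 1 and 8, and line 1 lies lower on chromosomes 1, 6, 8 and 11.

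Against WT line 2, TRIM33-KO cells differed in 274 of 18079 genes tested (1.52%; edgeR quasi-likelihood test, Benjamini-Hochberg adjusted p under 0.05). Of these, 204 were higher (1.13%) and 70 lower (0.387%) in TRIM33-KO cells, and 252 were protein-coding. The typical change was moderate. The median log2 fold change was 0.85 for the higher genes and -0.83 for the lower genes, and 111 genes (85 higher, 26 lower) changed by at least 1. In all 274, the 2 knockout libraries lay outside the range of the 2 line 2 libraries, as did 38.6% of all genes tested. In 195 they also lay outside the range of all 4 WT libraries, as did 20.5% of all genes tested: 145 of the higher genes lay above it (9.94% of all genes) and 50 of the lower genes below it (10.5%). The count depended on single libraries. It was lowest, 131, without TRIM33-KO replicate 2, 179 without WT line 2 replicate 2, 299 without TRIM33-KO replicate 1 and 312 without WT line 2 replicate 1. All 274 genes kept their direction in these fits, and 111 of them (95 higher, 16 lower) passed the threshold in every one.

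**Figure D2:**
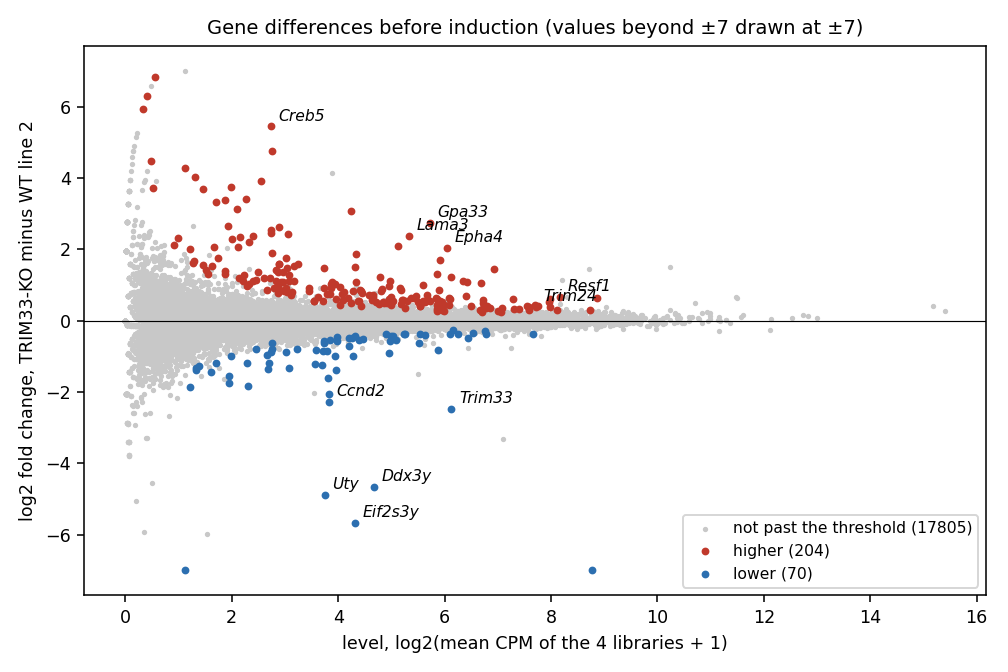
Log2 fold change of TRIM33-KO over WT line 2 against the mean level of the 4 libraries, for 18079 genes; red points are the 204 higher genes and blue points the 70 lower genes. The Y-linked genes and Trim33 lie far below 0, and Creb5 far above it.

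Among 103 higher genes with enough reads and with both knockout libraries above all 4 WT libraries, the 12 with the largest increases are described here. Creb5, a bZIP transcription factor that binds cyclic AMP response elements, stood first. Its level was 10.5 and 11.6 CPM in TRIM33-KO cells, from 211 and 242 reads. It was 0.0969 and 0.429 CPM in line 2, from 2 and 7 reads, and 0 and 0.193 CPM in line 1. Creb5 was thus near absent in every WT library, and the difference from line 2 was 5.45 ± 0.43 (edgeR adjusted p = 7.32e-07). With so few WT reads the size is loose: it was 4.66 without WT line 2 replicate 1 and 6.72 without replicate 2.

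Epha4, a receptor tyrosine kinase for ephrins, was the most precisely measured of the group. It had 101 and 107 CPM in TRIM33-KO cells, 26.8 and 24.1 in line 2 and 39.5 and 40.7 in line 1, which gave 2.03 ± 0.08 (edgeR adjusted p = 2.40e-10), a 4.08-fold higher level. Lama3, the laminin alpha 3 chain of basement membranes, had 66.5 and 65.7 CPM against 14.1 and 11.2 in line 2 (2.38 ± 0.12, edgeR adjusted p = 3.04e-09). In line 1 it stood between them at 37.7 and 38.0 CPM. Car2, a carbonic anhydrase, rose from 14.5 and 11.0 to 54.3 and 55.9 CPM (2.10 ± 0.11, edgeR adjusted p = 7.39e-09), with line 1 at 25.3 and 24.6. Gpa33, a surface antigen of intestinal epithelium, had 83.8 and 95.1 CPM against 8.19 and 19.3 in line 2 (2.74 ± 0.22, edgeR adjusted p = 1.10e-06). Line 1 had 74.1 and 71.8 CPM of Gpa33, close to the knockout. Gpa33 lies on chromosome 1, and without WT line 2 replicate 2 its difference was 3.46.

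Among these 12 genes was a pair that acts in Toll-like receptor signalling, a pathway whose other genes were not tallied. Tlr2, the receptor for bacterial lipoproteins, had 13.3 and 11.4 CPM in TRIM33-KO cells, 2.52 and 1.96 in line 2 and 5.63 and 5.66 in line 1 (2.44 ± 0.18, edgeR adjusted p = 4.06e-07). Irak3, an inhibitor of that pathway, had 26.5 and 34.0, 9.55 and 6.80 and 9.06 and 9.203 CPM in the same order (1.87 ± 0.15, edgeR adjusted p = 1.22e-06). Both were above all 4 WT libraries, and the Irak3 levels of the 2 WT lines overlapped. Abca1, the exporter of cellular cholesterol, had 10.4 and 11.6 CPM against 1.79 and 1.78 (2.62 ± 0.19, edgeR adjusted p = 3.71e-07), with 9.47 and 10.1 in line 1. The other 4 were Cyp2b23, a cytochrome P450 (2.55 ± 0.24), Dcdc2a, which has doublecortin domains (2.45 ± 0.31), Qpct, a glutaminyl cyclase (1.89 ± 0.19), and Ccdc141 (1.76 ± 0.17). The levels of the WT lines overlapped for Qpct (2.28 and 2.64 CPM in line 2, 1.92 and 3.02 in line 1). For the other 3, line 1 lay nearer to the knockout than line 2 did. Line 1 had 5.69 and 7.66 CPM of Cyp2b23 against 8.398 and 10.9 in TRIM33-KO cells (0.53, edgeR adjusted p = 0.0453). Dcdc2a was at 7.14 and 5.92 CPM in line 1 against 8.45 and 10.6 (0.55, edgeR adjusted p = 0.112), and Ccdc141 at 7.14 and 9.72 against 11.7 and 10.2 (0.37, edgeR adjusted p = 0.0704), so neither passed the threshold against line 1. All 12 passed the threshold against line 2 in each of the 4 fits that left out a library.

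The lower genes included Y-linked genes and a cell cycle regulator. Of 42 lower genes that met the same conditions, the first 11 are Eif2s3y, Uty, Ddx3y, Trim33, Ccnd2, Pou2f3, Fat2, Tgm3, Nhs, Plekhg1 and Pdgfc. Reads from ubiquitously expressed Y-linked genes were close to absent in TRIM33-KO cells. Eif2s3y, a subunit of translation initiation factor 2, had 0.646 and 0.768 CPM in TRIM33-KO cells against 28.8 and 45.0 in line 2 (-5.68 ± 0.56, edgeR adjusted p = 1.10e-05). Ddx3y, an RNA helicase, had 1.99 and 1.68 against 36.6 and 57.6 CPM (-4.67 ± 0.69, edgeR adjusted p = 9.58e-04). Uty, a histone demethylase paralogue, had 0.745 and 0.864 against 19.9 and 28.2 CPM (-4.88 ± 0.88, edgeR adjusted p = 0.00539), and missed the threshold without TRIM33-KO replicate 1 (-4.77, adjusted p = 0.0618) or replicate 2 (-4.98, adjusted p = 0.106). These genes also varied within line 1, where Ddx3y was 11.5 and 48.2 CPM. In the series' TRIM24-KO libraries without DOX, Ddx3y was 0.180 and 0.232 CPM.

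Ccnd2, which codes for cyclin D2, fell 4.88-fold against line 2. It had 5.02 and 3.94 CPM in TRIM33-KO cells, 22.2 and 21.5 in line 2 and 8.64 and 8.11 in line 1 (-2.29 ± 0.16, edgeR adjusted p = 1.69e-07). Line 1 lay between them, and the difference from line 1 was -0.90. Pou2f3, a POU-domain transcription factor, had 4.22 and 6.05, 22.4 and 20.3 and 13.5 and 10.9 CPM in the same order (-2.05 ± 0.19, edgeR adjusted p = 5.59e-06). Fat2, an atypical cadherin, and Tgm3, a transglutaminase, had overlapping levels in the 2 WT lines. Fat2 had 7.40 and 8.74 CPM against 17.2 and 24.9 in line 2 and 19.07 and 20.1 in line 1 (-1.38 ± 0.21, edgeR adjusted p = 0.00133), and Tgm3 had 3.08 and 2.98 against 6.54 and 9.01 and 7.41 and 7.98 (-1.35 ± 0.20, edgeR adjusted p = 9.58e-04). Pdgfc, a PDGF-family growth factor, had 9.49 and 9.75 CPM against 18.6 and 19.9 in line 2 and 56.6 and 62.1 in line 1 (-0.997 ± 0.11, edgeR adjusted p = 2.21e-05). Nhs, an X-linked regulator of the actin cytoskeleton, had 4.22 and 4.23 CPM against 9.01 and 12.2 in line 2 (-1.32 ± 0.18) and 7.34 and 5.66 in line 1 (-0.62, edgeR adjusted p = 0.0173). It lies in the X window from 160 to 180 Mb described above, where the median difference over 31 genes was -0.29. Plekhg1 had 10.8 and 22.7 CPM in line 2 against 6.86 and 7.16 in TRIM33-KO cells and 53.2 and 55.2 in line 1. Its call was lost without WT line 2 replicate 2 (-0.61, adjusted p = 0.219), without TRIM33-KO replicate 1 (-1.20, adjusted p = 0.0916) and without TRIM33-KO replicate 2 (-1.26, adjusted p = 0.139).

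**Figure D3:**
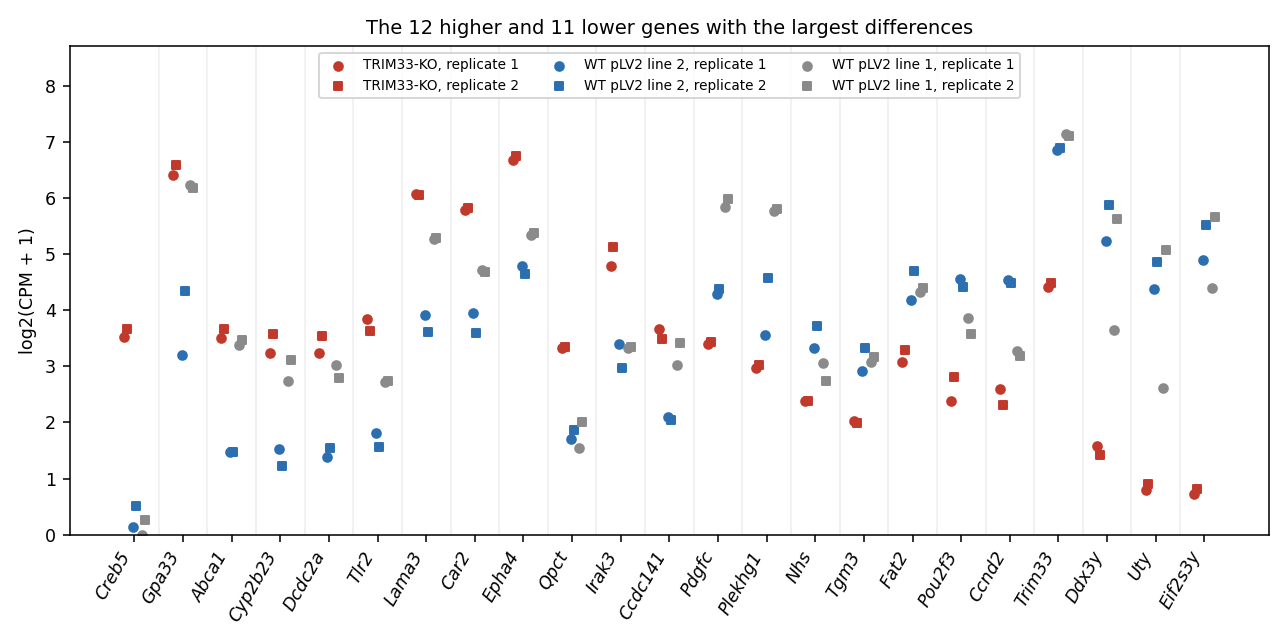
Level of the 12 higher and 11 lower genes in each library, as log2(CPM + 1), with TRIM33-KO in red, WT line 2 in blue and WT line 1 in grey. By the choice of genes the red points lie outside all WT points, and for several genes, such as Gpa33, Abca1 and Dcdc2a, line 1 lies near the knockout.

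Promoter sequences are shown for 4 of these genes to compare sites for SMAD proteins, the known partners of TRIM33. Creb5 and Epha4 were the higher genes with the largest and the most precise change, and Ccdc141 and Pdgfc were chosen as one higher and one lower gene of these that hold a SMAD motif. Each is the 250 bases before the RefSeq start (GRCm38.p6), written 5′ to 3′ on the gene's strand, and capitals mark a match to CAGACA, searched on both strands. Creb5 has a second RefSeq window, which is not shown, and the last 33 bases of the one shown lie inside the GENCODE gene.
Creb5, chr6:53287053-53287302, plus strand: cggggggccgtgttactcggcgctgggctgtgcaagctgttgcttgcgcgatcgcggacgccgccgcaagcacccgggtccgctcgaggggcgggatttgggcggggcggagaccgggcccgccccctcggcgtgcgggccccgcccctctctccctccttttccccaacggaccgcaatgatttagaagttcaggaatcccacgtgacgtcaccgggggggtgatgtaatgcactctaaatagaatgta
Epha4, chr1:77515089-77515338, minus strand: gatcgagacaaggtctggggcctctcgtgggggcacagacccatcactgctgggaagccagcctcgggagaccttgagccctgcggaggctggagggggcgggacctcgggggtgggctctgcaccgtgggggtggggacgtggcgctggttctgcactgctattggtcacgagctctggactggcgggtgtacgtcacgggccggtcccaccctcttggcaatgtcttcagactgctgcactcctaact
Ccdc141, chr2:77170636-77170885, minus strand: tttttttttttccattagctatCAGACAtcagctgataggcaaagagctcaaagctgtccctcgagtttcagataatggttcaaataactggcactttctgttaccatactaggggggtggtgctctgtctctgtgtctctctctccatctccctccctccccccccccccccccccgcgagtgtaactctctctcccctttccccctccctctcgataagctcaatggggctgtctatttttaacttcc
Pdgfc, chr3:81036166-81036415, plus strand: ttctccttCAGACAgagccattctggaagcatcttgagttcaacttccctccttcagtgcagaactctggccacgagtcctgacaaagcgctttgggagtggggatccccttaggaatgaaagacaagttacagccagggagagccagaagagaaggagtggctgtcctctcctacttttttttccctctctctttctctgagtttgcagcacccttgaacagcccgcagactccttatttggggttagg
Over all genes tested, 13.7% of 14793 such windows held CAGACA. Among the higher genes, 127 symbols had an entry and 11.2% of their 169 windows held it. Among the lower genes, 47 symbols had an entry and 18% of their 61 windows held it. The FOXH1 motif AATCCAC, searched on both strands, was in 1.72% of all the tested genes' windows and in 0 of the windows of higher or lower genes. These letters describe the windows shown and are no measure of binding, and the 4 windows hold no FOXH1 match.

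The choice of WT line set the number of differences. TRIM33-KO cells differed from WT line 1 in 7390 genes (40.9%; 20.2% higher, 20.6% lower) and from the mean of both lines in 4323 (23.9%; 12.8% higher, 11.1% lower), and the 2 WT lines differed from each other in 6920 (38.3%), by the same edgeR fit. These comparisons share libraries, so they are given side by side. For 97 of the 204 higher genes and 24 of the 70 lower genes, the line 1 mean was nearer to the knockout than to line 2. These counts have no share over all genes beside them and describe only the called genes. Meg3, an imprinted non-coding RNA of the Dlk1-Dio3 locus, is one gene in which the WT lines differ: 113 and 119 CPM in TRIM33-KO cells, 136 and 110.3 in line 2, and 0.137 and 0.515 in line 1. The knockout and line 2 overlapped in Meg3 (-0.09 ± 0.09, edgeR adjusted p = 0.792). Of the 6 tested genes of that imprinted locus, 0 passed the threshold against line 2 by edgeR or DESeq2, and 1 had an unadjusted p under 0.05.

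Among the TIF1 proteins, Trim24 was the only other member past the threshold. It had 221 and 253 CPM in TRIM33-KO cells, 196 and 165 in line 2 and 100.2 and 94.5 in line 1 (0.39 ± 0.09, edgeR adjusted p = 0.0427). Trim24 lies in the chromosome 6 window from 20 to 40 Mb, where the median difference was 0.07. The call was lost without WT line 2 replicate 2 (0.29, adjusted p = 0.375) or TRIM33-KO replicate 2 (0.29, adjusted p = 0.511). Trim28, the co-repressor used by KRAB zinc finger proteins, was at 1323 and 1298 CPM against 1331 and 1342 in line 2 (-0.03 ± 0.06, edgeR adjusted p = 0.925) and 1742 and 1740.3 in line 1 (-0.41, edgeR adjusted p = 2.32e-05), so the knockout was below all 4 WT libraries. Trim66 was low in both lines (-0.35 ± 0.29, edgeR adjusted p = 0.714). In the whole list of 43 TIF1 and heterochromatin genes, 3 were higher and 1, Trim33, was lower (9.3% called, against 1.52% of all genes). That share counts Trim33 itself, the gene named in the knockout's title. The list's median log2 fold change was -0.01 against 0 over all genes. Resf1, a co-factor in silencing of retroelements with SETDB1, rose from 214 and 231 CPM in line 2 to 353 and 353 (0.67 ± 0.06, edgeR adjusted p = 5.76e-06), and line 1 had 199.9 and 194. Atf7ip, which stabilises SETDB1, had 225 and 252 CPM against 180.4 and 172 in line 2 and 170.5 and 166 in line 1 (0.44 ± 0.07, edgeR adjusted p = 0.00213). Both genes were above all 4 WT libraries. The Atf7ip call was lost without TRIM33-KO replicate 2 (0.36, adjusted p = 0.0521).

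By edgeR in the design used throughout, no gene of the Nodal, TGF-beta and BMP pathway passed the threshold: 0 of 48 tested components and 0 of 30 SMAD target genes, with median log2 fold changes of -0.04 and 0.06. At an unadjusted p under 0.05, 7 of the 48, 7 of the 30 and 2082 of all 18079 genes differed. DESeq2 called 2 of 46 components, and 1 of them, Tgif1, is also the single call of 27 SMAD targets. Tgif1, a SMAD co-repressor, had 142 and 153 CPM in TRIM33-KO cells, 128 and 118 in line 2 and 143 and 147 in line 1 (0.26, DESeq2 adjusted p = 0.0314, edgeR adjusted p = 0.055). Bmp4, a BMP ligand, had 25.6 and 20.4, 18.1 and 16.4 and 18.2 and 17.4 CPM in the same order (0.42, DESeq2 adjusted p = 0.0440, edgeR adjusted p = 0.0621). Nodal, the ligand, had 28.6 and 28.3 CPM in TRIM33-KO cells and 30.7 and 30.8 in line 2 (-0.11 ± 0.09, edgeR adjusted p = 0.716). Its feedback inhibitors Lefty1 and Lefty2, which are targets of the same signal, did not pass the threshold either. Lefty1 had 19.7 and 23.2 against 25.5 and 40.0 CPM (-0.60 ± 0.20, edgeR adjusted p = 0.192), and Lefty2 had 133 and 144 against 129.9 and 163 (-0.08 ± 0.13, edgeR adjusted p = 0.89). Without WT line 2 replicate 1 the Lefty1 difference was -0.89 and passed the threshold (edgeR adjusted p = 0.029). It passed with no filter on low counts as well (-0.58, edgeR adjusted p = 1.60e-04), and against line 1 (-0.68, edgeR adjusted p = 0.0125). Smad7, the inhibitory SMAD, was at 91.5 and 87.7 CPM against 105 and 101 (-0.20 ± 0.07, edgeR adjusted p = 0.257), and Skil, a SMAD co-repressor, at 118 and 120.2 against 96.0 and 110.1 (0.21 ± 0.08, edgeR adjusted p = 0.283). The Smad7 and Skil libraries did not overlap between the lines, but neither difference passed the threshold. Pmepa1, Id1 and Id3, further SMAD targets, lay at -0.05, 0.03 and 0.20 without passing. Against line 1, Nodal, Smad7 and Pmepa1 also passed, at -1.07, -0.98 and -0.91, with line 1 at 63.0 and 56.6 CPM of Nodal and 176 and 176 of Smad7. Lefty2 passed against line 1 in the other direction (0.36, edgeR adjusted p = 0.0448), with line 1 at 103 and 113 CPM.

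Against line 2, the core pluripotency genes did not pass the threshold. Pou5f1 had 592 and 581 CPM against 589.8 and 595 (-0.01 ± 0.07, edgeR adjusted p = 0.99), Nanog 534 and 600.1 against 545 and 489.5 (0.13 ± 0.07, edgeR adjusted p = 0.549), and Sox2 408 and 417 against 399 and 411 (0.03 ± 0.07, edgeR adjusted p = 0.943). Against line 1 all 3 passed, Pou5f1 (-0.45, edgeR adjusted p = 6.42e-05) and Sox2 (-0.21, edgeR adjusted p = 0.0164) as lower and Nanog (0.38, edgeR adjusted p = 7.17e-04) as higher, with line 1 at 794 and 807 CPM of Pou5f1, 435 and 439 of Nanog and 471 and 483 of Sox2. Of 29 tested pluripotency genes, 1 passed the threshold (3.45%, against 1.52% of all genes): Fbxo15, an F-box protein gene of ESC, which had 56.8 and 56.9 CPM against 39.8 and 40.0 in line 2 and 92.1 and 92.7 in line 1 (0.51 ± 0.09, edgeR adjusted p = 0.00547). By DESeq2, 2 of the 29 passed. Zfp42 (Rex1), on chromosome 8, was at 379 and 361 CPM against 375 and 260.4 (0.22 ± 0.12, edgeR adjusted p = 0.527), and passed the threshold without WT line 2 replicate 1 (0.51, edgeR adjusted p = 0.00996) and against line 1 (1.01, edgeR adjusted p = 5.52e-06).

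Of 22 tested genes of the formative and primed states, 4 rose and 0 fell (18.2% called, against 1.52% of all genes), and the list median was 0.11. This list, like the others, was written with earlier results of these data known, so its share is a description and no test. Nefm, a neurofilament gene, had 9.29 and 10.04 CPM against 3.49 and 2.94 in line 2 and 4.87 and 3.86 in line 1 (1.58 ± 0.19, edgeR adjusted p = 8.97e-05). Lef1, a transcription factor of Wnt signalling, had 17.5 and 20.7 CPM against 7.56 and 11.3 and 23.1 and 25.3 (1.04 ± 0.20, edgeR adjusted p = 0.00877). Etv5, an ETS factor downstream of FGF, had 276 and 293 against 213 and 223 and 269.7 and 281 (0.38 ± 0.08, edgeR adjusted p = 0.0159). Dnmt3b, a de novo DNA methyltransferase, had 176 and 173 against 128 and 148 and 217 and 210.1 (0.34 ± 0.08, edgeR adjusted p = 0.0343). Among these 4, Nefm alone was above all 4 WT libraries and called in every fit that left out a library. Lef1 was lost without TRIM33-KO replicate 2 (0.91, adjusted p = 0.156) or WT line 2 replicate 1 (0.77, adjusted p = 0.105). Etv5 was lost without TRIM33-KO replicate 2 (0.34, adjusted p = 0.209), WT line 2 replicate 1 (0.35, adjusted p = 0.0941) or WT line 2 replicate 2 (0.43, adjusted p = 0.0559). Dnmt3b was lost without TRIM33-KO replicate 1 (0.33, adjusted p = 0.133), TRIM33-KO replicate 2 (0.36, adjusted p = 0.189) or WT line 2 replicate 1 (0.24, adjusted p = 0.22).

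Markers of other cell types gave 1 call each for mesendoderm (5.88% of its tested members), primitive endoderm (5.26%) and trophoblast (6.67%), against 1.52% of all genes. The list medians were -0.37 for mesendoderm (12 of 17 below 0), -0.21 for primitive endoderm (15 of 19 below 0), -0.18 for trophoblast and 0.14 for neuroectoderm. Of 17 tested mesendoderm markers, 1 was lower: Trh, a hormone precursor of early mesendoderm, with 35.1 and 47.4 CPM against 62.1 and 85.7 in line 2 (-0.84 ± 0.19, edgeR adjusted p = 0.0332). In line 1 Trh was 36.6 and 35.1 CPM, and by DESeq2 the call was lost (-0.84, DESeq2 adjusted p = 0.0742). Of 19 primitive endoderm markers 1 was lower, the endocytic receptor Lrp2 (-0.58 ± 0.14, edgeR adjusted p = 0.049), which also passed against line 1 (-1.07, edgeR adjusted p = 1.31e-05). DESeq2 called 2 of 17 primitive endoderm markers. Of 15 trophoblast markers 1 was higher, the transcription factor Tfap2a, from 1.02 and 0.613 CPM to 2.63 and 4.37 (2.06 ± 0.44, edgeR adjusted p = 0.0203), with line 1 at 0.823 and 1.16. By edgeR and by DESeq2, 0 of the neuroectoderm markers (2 of 11 at an unadjusted p under 0.05) and 0 of the genes of the 2-cell state (2 of 43) passed. Of the 45 listed 2-cell genes, 19 had at most 3 reads in each of the 4 libraries. The summed level of the list was 190.2 and 181.6 CPM in TRIM33-KO, 189.6 and 196.5 in line 2 and 223.5 and 233.1 in line 1. The list median was 0.45 (26 above 0, 13 below), and 0.51 over the 24 tested members with more reads. Zscan4c, one of them with more reads, had 0.696 and 0.288 CPM in TRIM33-KO cells and 0.291 and 0.0613 in line 2 (1.33 ± 0.85, edgeR adjusted p = 0.599), and was lower than in line 1, which had 1.51 and 1.223 (-1.46, edgeR adjusted p = 0.0497). Each of the Trh, Lrp2 and Tfap2a calls was lost in at least 2 of the 4 fits with a library left out. Trh was lost without WT line 2 replicate 2 (-0.58, adjusted p = 0.374) or TRIM33-KO replicate 1 (-0.63, adjusted p = 0.234), and Tfap2a without WT line 2 replicate 2 (1.79, adjusted p = 0.195) or TRIM33-KO replicate 2 (1.66, adjusted p = 0.317). Lrp2 was lost whichever library was left out, with an adjusted p between 0.0778 and 0.511. Embryonic fibroblasts can be present as feeder cells, according to the growth protocol. Of 23 fibroblast markers, 8 had no read in any of the 4 libraries, among them Dcn, Lum and Postn, and 0 of 10 tested differed by edgeR or DESeq2 (3 at an unadjusted p under 0.05). Their summed level was 69.7 and 63.4 CPM in TRIM33-KO and 84.3 and 78.3 in line 2. The part of feeder cells in the results was not tested. In bulk RNA, fewer cells of a type and less RNA per cell cannot be told apart.

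Of 41 tested genes that respond to LIF, FGF and Wnt signals, 5 were higher and 1, Ccnd2, was lower (14.6% called, against 1.52% of all genes), with a list median of 0.01. Besides Lef1 and Etv5, the higher ones were Etv1, an ETS factor (27.6 and 25.2 CPM against 14.9 and 14.9, 0.83 ± 0.11, edgeR adjusted p = 2.46e-04), Egr1, an immediate early gene (51.1 and 54.5 against 32.1 and 33.6, 0.69 ± 0.12, edgeR adjusted p = 0.0037), and Spry2, an inhibitor of receptor tyrosine kinase signals (71.8 and 72.5 against 54.1 and 52.0, 0.44 ± 0.09, edgeR adjusted p = 0.00918). Etv1 was called against line 2 in all fits with a library left out, but not against line 1, which had 22.4 and 23.7 CPM (0.19, edgeR adjusted p = 0.155). Egr1 was lost without TRIM33-KO replicate 2 (0.64, adjusted p = 0.0651), and Spry2 without that library (0.44, adjusted p = 0.106) or WT line 2 replicate 2 (0.43, adjusted p = 0.104). Line 1 had 96.7 and 94.99 CPM of Spry2 and 24.7 and 23.4 of Egr1, so the knockout lay between the WT lines for Spry2 and above both for Egr1.

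In the cholesterol list, 25 of 27 genes lay below 0 with a median of -0.15, and 2 passed the threshold (7.41%, against 1.52% of all genes). They were Abca1, higher as described, and Stard4, a sterol carrier, lower (45.1 and 38.7 CPM against 51.2 and 59.5, -0.40 ± 0.09, edgeR adjusted p = 0.0397). Line 1 had 39.0 and 35.3 CPM of Stard4, near or below the knockout (0.17, edgeR adjusted p = 0.169). The summed CPM of the list was 1849 and 1782 in TRIM33-KO, 1853 and 2116 in line 2, so WT line 2 replicate 1 was close to the knockout and replicate 2 stood above it. The Stard4 call was lost without that library (-0.28, adjusted p = 0.426) or TRIM33-KO replicate 2 (-0.29, adjusted p = 0.593). No gene passed among 24 p53 targets, 32 glycolysis and hypoxia genes, 28 stress response genes and 18 retinoic acid genes by edgeR. At an unadjusted p under 0.05 these lists had 2, 2, 0 and 3 genes, and DESeq2 called 1, the p53 target Pmaip1 (-0.44, DESeq2 adjusted p = 0.0396). Ccnd2 was the single call of 39 cell cycle genes (2.56%, against 1.52% of all genes). Bst2 (tetherin), an antiviral membrane protein, was the single call of 24 interferon genes (4.17%), at 9.99 and 7.30 CPM against 15.4 and 15.7 in line 2 and 21.4 and 17.0 in line 1 (-0.85 ± 0.15, edgeR adjusted p = 0.00414). It was lost without TRIM33-KO replicate 2 (-0.63, adjusted p = 0.126). Of 32 matrix and adhesion genes, 1 was higher (3.12%; DESeq2 called 3 of 30), the integrin chain Itgb1 on chromosome 8 (0.31 ± 0.07, edgeR adjusted p = 0.0332; 0.98, edgeR adjusted p = 3.71e-08 against line 1), which was lost without WT line 2 replicate 2 (0.22, adjusted p = 0.352), TRIM33-KO replicate 1 (0.27, adjusted p = 0.167) or TRIM33-KO replicate 2 (0.37, adjusted p = 0.0775).

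Germline genes gave 3 higher calls of 28 (10.7%, against 1.13% of all genes called higher), with a median of -0.17. DESeq2 called 2 of 25, without Stk31 (0.80, DESeq2 adjusted p = 0.0745). Mael, a piRNA pathway protein, had 6.86 and 6.87 CPM against 3.93 and 3.68 in line 2 and 7.75 and 6.82 in line 1 (0.85 ± 0.18, edgeR adjusted p = 0.0231). Tex15, another piRNA pathway gene, had 53.9 and 58.4 against 44.0 and 32.4 and 14.9 and 15.2 (0.55 ± 0.13, edgeR adjusted p = 0.0465), and Stk31 had 8.55 and 7.59 against 5.28 and 3.98 and 3.98 and 3.93 (0.79 ± 0.19, edgeR adjusted p = 0.0477). Stk31 and Tex15 were above all 4 WT libraries, whereas line 1 had as much Mael as the knockout. The Mael call was lost whichever library was left out, with an adjusted p between 0.0749 and 0.155. Tex15 and Stk31 kept theirs only without WT line 2 replicate 1. Their weakest values were without WT line 2 replicate 2, for Tex15 (0.36, adjusted p = 0.402) and for Stk31 (0.62, adjusted p = 0.36). Outside the Dlk1-Dio3 locus, 1 of 34 imprinted genes was higher, Cdkn1c, a cyclin-dependent kinase inhibitor (12.6 and 12.6 against 8.48 and 8.76 CPM, 0.55 ± 0.12, edgeR adjusted p = 0.0246). This was 2.94% of the list, against 1.13% of all genes. Line 1 had 13.0 and 12.03 CPM of Cdkn1c, as much as the knockout (0.01, edgeR adjusted p = 0.996), and the adjusted p against line 2 lay between 0.087 and 0.17 whenever a library was left out. Tsix, the antisense partner of Xist, had 18.7 and 21.1 CPM against 12.3 and 11.5 (0.74 ± 0.10, edgeR adjusted p = 5.98e-04) and 14.3 and 15.1 in line 1 (0.44, edgeR adjusted p = 0.003). The strand setting of the counting is not given in the sources used here, so reads of Tsix and Xist may not be separable.

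**Figure D4:**
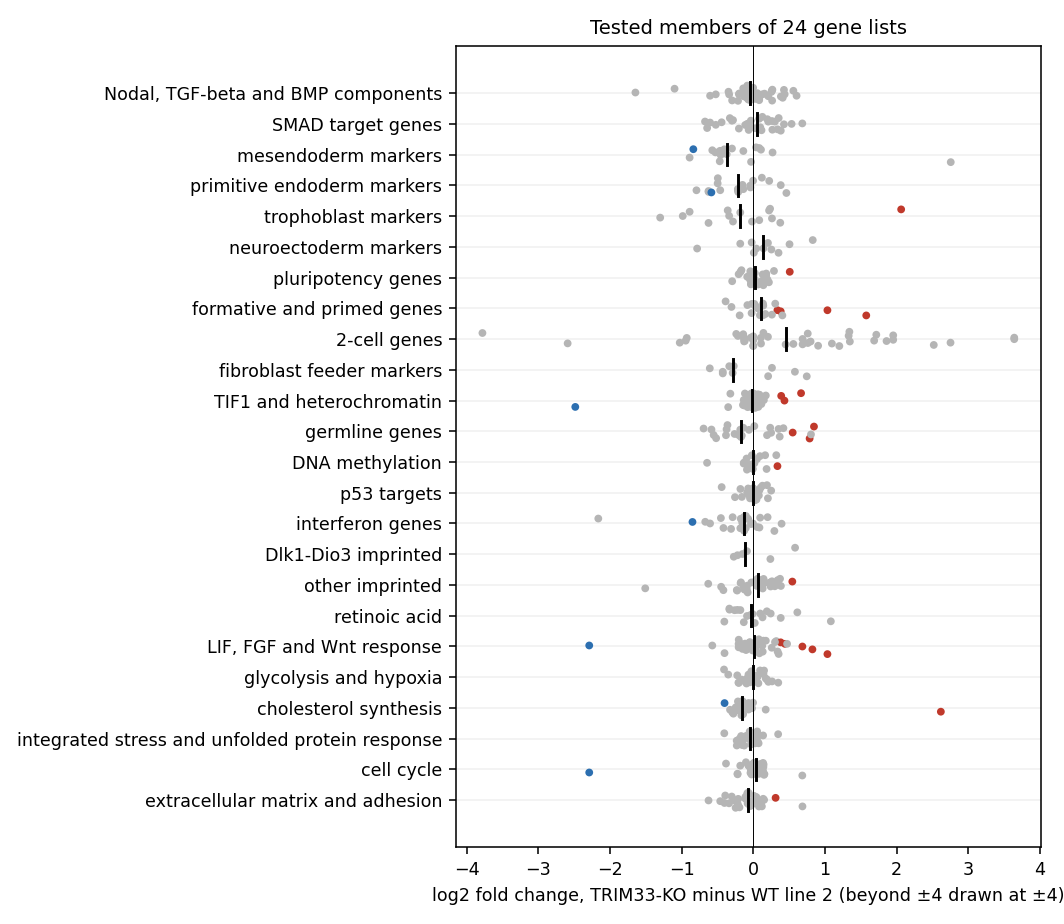
Log2 fold change of each tested member of 24 gene lists, TRIM33-KO over WT line 2; red and blue points are members called higher and lower, grey points were not called, and black bars are list medians. The lists of Nodal, TGF-beta and BMP components and of SMAD targets hold no coloured point, and the formative and primed list holds 4 red ones.

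Repeat-derived RNA was higher in TRIM33-KO cells at a few retroviral subfamilies. Of 965 repeat subfamilies tested, 18 passed the threshold and all 18 were higher (1.87%). They were 12 of 271 ERVK subfamilies, 5 of 103 ERV1 subfamilies and 1 of 127 LINE-1 subfamilies. Of 95 ERVL subfamilies, 0 were called by edgeR or DESeq2, and 4 had an unadjusted p under 0.05. Over all subfamilies, 610 of 965 lay above 0 and the median log2 fold change was 0.06. A count per subfamily sums many near-identical copies, so it names no single locus.

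MMERVK9C_I-int, the internal part of an ERVK provirus, had 169 and 180.2 CPM in TRIM33-KO cells, 78.2 and 75.6 in line 2 and 155 and 166 in line 1 (1.183 ± 0.10, edgeR adjusted p = 9.72e-07). BGLII, an ERVK long terminal repeat (LTR), had 54.3 and 55.4, 23.3 and 23.2 and 32.5 and 30.1 CPM in the same order (1.24 ± 0.11, edgeR adjusted p = 9.72e-07), and the replicates of each line were alike. RLTR1B-int, an ERV1 internal part, was abundant, with 356 and 365 CPM against 107 and 174 in line 2 and 259.8 and 285 in line 1 (1.36 ± 0.16, edgeR adjusted p = 4.75e-05). LTRIS2 had 72.1 and 80.2, 31.9 and 39.2 and 55.4 and 58.3 CPM (1.10 ± 0.12, edgeR adjusted p = 3.24e-05). For RLTR33, unlike these, line 1 was the lowest (65.7 and 69.4, 30.4 and 37.2 and 16.7 and 21.6 CPM, 1.000 ± 0.16). IAPLTR3-int (1.55 ± 0.26) and RLTR45-int (1.30 ± 0.21) rose against line 2 as well. Line 1 had 5.69 and 7.66 CPM of IAPLTR3-int against 7.70 and 8.07 in the knockout, a difference of 0.24, and had more RLTR45-int (46.2 and 53.5 CPM) than TRIM33-KO cells (27.6 and 33.1).

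Both knockout libraries were above both line 2 libraries in all 18, as in 28.2% of the 965, and above all 4 WT libraries in 10, as in 18.1% of the 965. In the other 8 at least one library of line 1 reached the knockout. Against WT line 1, 36 subfamilies differed (3.73%; 26 higher, 2.69%, and 10 lower, 1.04%), and against the mean of both lines 14 (1.45%; 11 higher, 1.14%, and 3 lower, 0.311%), while the WT lines differed in 55 (5.7%). For 13 of the 18, the line 1 mean was nearer to TRIM33-KO than to line 2. This count, too, describes only the called subfamilies, with no share over all 965 beside it. The only LINE-1 subfamily called, L1Md_Gf, had 85.7 and 77.8 CPM against 62.1 and 49.8 in line 2 and 142 and 148 in line 1 (0.55 ± 0.13, edgeR adjusted p = 0.0254). Its call was lost without TRIM33-KO replicate 1 (0.49, adjusted p = 0.237), TRIM33-KO replicate 2 (0.62, adjusted p = 0.0692) or WT line 2 replicate 2 (0.41, adjusted p = 0.48). The 10 subfamilies called in every fit with a library left out include all 7 described above. The other 3 were IAP1-MM_I-int (1.12 ± 0.17), MMERVK9E_I-int (0.94 ± 0.15) and RLTR4_MM-int (0.73 ± 0.12), in each of which line 1 reached the knockout. The other 7 calls, besides that of L1Md_Gf, were each lost in at least 1 such fit. Without TRIM33-KO replicate 2, ERVB4_1C-LTR_Mm (0.67, adjusted p = 0.167), ETnERV2-int (0.57, adjusted p = 0.284), RLTR5_Mm (1.60, adjusted p = 0.284) and RLTR9E (0.45, adjusted p = 0.187) were lost, and all 4 were lost without WT line 2 replicate 2 too. Without WT line 2 replicate 1, RLTR1B (0.63, adjusted p = 0.0541) and RMER16-int (0.50, adjusted p = 0.0822) were lost, together with ERVB4_1C-LTR_Mm and RLTR5_Mm, and RMER16-int was also lost without TRIM33-KO replicate 1.

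RLTR10 elements, of which RLTR10B is a known target of TRIM33 in the mouse testis, gave 1 call of 10 tested subfamilies (10%, against 1.87% of all 965). It was the rarest but one, RLTR10D2, with 2.53 and 1.97 CPM against 0.775 and 0.735 in line 2 (1.56 ± 0.28, edgeR adjusted p = 0.00343) and 1.85 and 1.35 in line 1 (0.49, edgeR adjusted p = 0.223), and the call against line 2 narrowly missed the threshold without WT line 2 replicate 1 (adjusted p = 0.0502). RLTR10B had 5.32 and 5.23 CPM in TRIM33-KO cells and 5.23 and 3.37 in line 2 (0.27 ± 0.21, edgeR adjusted p = 0.805), so both TRIM33-KO libraries were at or just above the upper line 2 library. MERVL-int and MT2_Mm, the ERVL elements of 2-cell embryos, lay at 0.25 ± 0.18 and 0.14 ± 0.18, and IAPEz-int at -0.15 ± 0.13 (edgeR adjusted p = 0.858). L1Md_T, a young LINE-1, had 1191 and 1292 CPM against 955 and 746 (0.55 ± 0.40, edgeR adjusted p = 0.792). Fitted on these 4 libraries alone, the same L1Md_T difference had an edgeR adjusted p of 2.64e-08, and GSAT_MM, the major satellite, one of 0.0030 in place of 0.386. Line 1 was above the knockout for both, with 2205 and 2235 CPM of L1Md_T (-0.84, edgeR adjusted p = 0.182) and 7.82 and 7.34 of GSAT_MM (-0.12, edgeR adjusted p = 0.783).

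**Figure D5:**
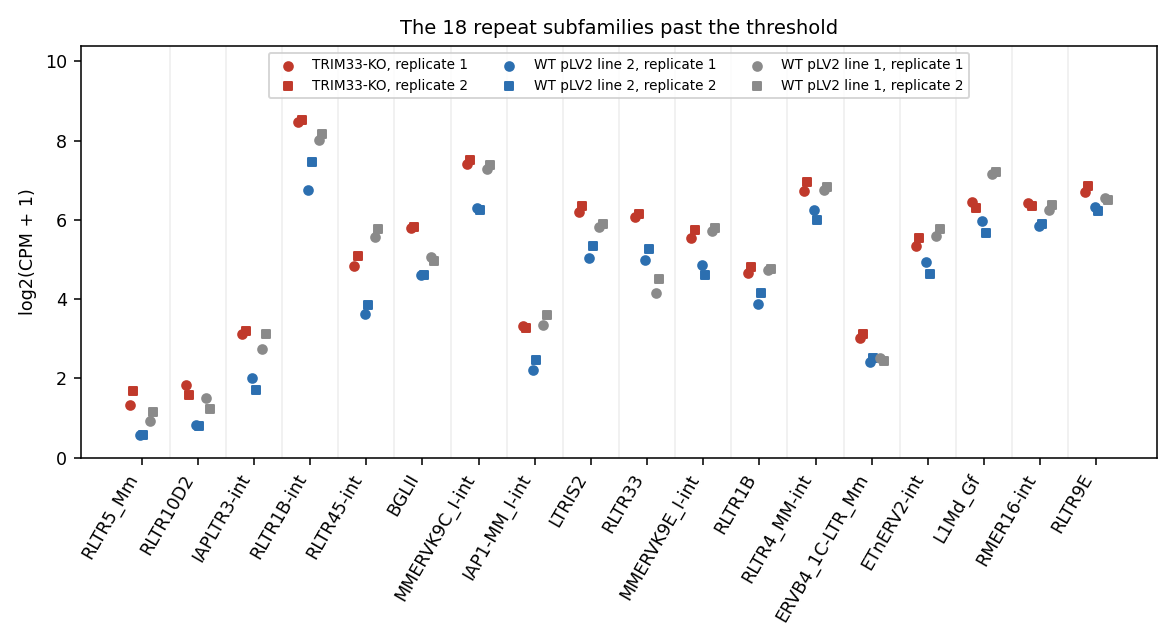
Level of the 18 repeat subfamilies past the threshold, as log2(CPM + 1), in the 2 libraries each of TRIM33-KO (red), WT line 2 (blue) and WT line 1 (grey). Red lies above blue in all 18, while grey lies at or above red for subfamilies such as RLTR45-int and L1Md_Gf.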

How the data were processed

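RNA was sequenced as paired 75-base reads after rRNA depletion with a directional kit, per the labels' protocols. The submitters' processing notes name bcl2fastq 2.20.0, cutadapt 1.18, STAR 2.7.6a and the build mm10. Counting tool, strand setting and the treatment of multi-mapping reads are not given in the sources used here. The authors deposited raw counts per gene and repeat subfamily (55487 gene IDs, 1146 subfamilies). Symbols and positions come from GENCODE M21 (54435 IDs matched with version, 792 without it, 260 not at all), promoters from RefSeq.

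The 16 pLV2 libraries (8 groups by title, which disagrees with the treatment tag in 8) were fitted together with edgeR 4.0.16 in R 4.3.3: TMM factors from gene counts, filterByExpr, glmQLFit and glmQLFTest (2-sided), and Benjamini-Hochberg adjustment over all genes and, separately, all repeats, at a threshold of 0.05. CPM values use effective library sizes. Each standard error is the absolute log2 fold change divided by the square root of the quasi-likelihood F value. DESeq2 1.42.0 and other settings were alternatives. The code was tested on simulated data. Precision is set by 2 libraries per group, with a biological coefficient of variation of 8.55% for genes and 11.3% for repeats. Members and lists were chosen with earlier results of these data known. Named genes were a fixed set, the 12 higher and 12 lower called genes with the largest change (mean of at least 100 counts, symbols not starting with Gm or ending in Rik, both TRIM33-KO libraries outside all 4 WT libraries), and up to 4 called members per list. One gene named by this rule is not reported here. Spry2, Tgif1, Bmp4, Pmaip1 and the called repeats beyond the first 5 were named after their values were seen. Lists were described by counts and medians and not tested.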

Additional observations from a re-analysis of the deposited data

How the results depend on the processing

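The number of genes that differed from WT line 2 was 273 with DESeq2's median-of-ratios factors, 271 with a minimum mean of 10 counts, 271 with repeat reads in the library sizes, 204 with the 4 libraries alone, 293 with the 8 libraries without DOX and 291 with DESeq2. It was 649 with no filter on low counts (456 higher, 193 lower), 111 with an absolute log2 fold change of at least 1, and 131 to 312 when 1 of the 4 libraries was left out. It was 7390 against WT line 1 and 4323 against the mean of both lines. For repeat subfamilies, 18 became 50 with the 4 libraries alone (46 higher, 4 lower), 46 with the 8 libraries without DOX, 36 against WT line 1 (26 higher, 10 lower), 9 at an absolute log2 fold change of at least 1, and 13 to 18 without 1 library. The difference between the WT lines in repeats, 55 subfamilies, was 99 with no filter, 273 with the compared libraries alone, 224 with the 8 libraries, and 17 to 25 without 1 library. The causes were not tested.

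With the replicate block, 307 genes (224 higher, 83 lower) and 18 repeat subfamilies differed. Deviations of same-numbered TRIM33-KO and line 2 libraries correlated at -0.022 over 18079 genes. With 2 libraries per group, this value cannot decide whether the replicate numbers pair the libraries. Against WT line 1 the sign turned for Trh (0.21), Meg3 (8.41), Stard4 (0.17), Dnmt3b (-0.29), Lef1 (-0.34), Fbxo15 (-0.70), Mael (-0.085), Zscan4c (-1.46), Lefty2 (0.36), Sox2 (-0.21), RLTR10D (-0.63) and RLTR45-int (-0.72). Against the mean of both lines it turned for Meg3 (4.16), Fbxo15 (-0.096), Lefty2 (0.14), Sox2 (-0.092), Zscan4c (-0.066) and RLTR10D (-0.17). These are genes and repeats of the naming rule that passed in at least one of the comparisons. Of all 274 called genes, 55 turned sign against line 1 (41 higher and 14 lower against line 2), Spry2 (-0.41) and Per2 (0.55) among them, and 21 of the 55 passed the threshold there. Of the 18 called repeats 6 turned, and L1Md_Gf (-0.83) alone of them passed there. The 26 medians, of 25 gene lists and the RLTR10 subfamilies, moved by more than 1 SD over library pairs in 42 of 104 values without 1 library, in 19 of 26 against line 1 and in 17 of 26 against both lines. Low counts limit Creb5 in WT cells and RLTR10D2, and replicates differed beyond counting noise in each group (chi-square per gene of 11.9 in TRIM33-KO and 9.09 in line 2).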

Other observations

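The genes that follow were picked after their values were seen. The metallothionein genes Mt1 and Mt2, whose products bind zinc, were lower in TRIM33-KO cells than in WT line 2. Mt2 had 168 and 181 CPM against 230.3 and 227 in line 2 (-0.39 ± 0.09, edgeR adjusted p = 0.0332), and Mt1 79.0 and 82.0 against 98.1 and 105 (-0.34 ± 0.07, edgeR adjusted p = 0.0261). Against line 1, Mt2 was higher, with 116 and 112 CPM there (0.62, edgeR adjusted p = 3.67e-05), and Mt1 did not pass (0.02, edgeR adjusted p = 0.892). They lie on chromosome 8. The Mt2 call was lost whichever library was left out, with an adjusted p between 0.117 and 0.214, and the Mt1 call was lost without TRIM33-KO replicate 1 (-0.30, adjusted p = 0.171), TRIM33-KO replicate 2 (-0.36, adjusted p = 0.17) or WT line 2 replicate 2 (-0.28, adjusted p = 0.305). The non-coding RNAs Platr3 (0.91 ± 0.13), Platr7 (1.10 ± 0.19) and Platr10 (0.61 ± 0.09), named for their link to pluripotency, were higher than in line 2, and Platr3 and Platr10 were called in every fit with a library left out, whereas Platr7 was lost without WT line 2 replicate 1 (0.92, adjusted p = 0.0616). Against line 1, Platr3 (1.31, edgeR adjusted p = 2.10e-06) and Platr10 (0.30, edgeR adjusted p = 0.0134) passed and Platr7 (-0.11, edgeR adjusted p = 0.656) did not. Other Platr genes were not tallied. Gm28661, an unprocessed pseudogene on chromosome 1, was at 0 and 0 CPM in TRIM33-KO and 756 and 994 in line 2, but 0 and 779 in the 2 libraries of line 1. Reads of near-identical copies may be split between genes, so its level is uncertain.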
